A study of Mus musculus with 6 samples.

Results

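The genes of the PAR, atypical protein kinase C (aPKC), Crumbs and Scribble complexes, which set up apical and basolateral membrane in epithelial cells, were examined in glomeruli of dendrin knockout mice. They were chosen by name as Pard3, Pard6a, Pard6b, Pard6g, Prkci, Prkcz, Crb2, Scrib, Llgl1 and Dlg1, and every probe set that the array annotation assigns to just 1 of them was taken. Of the 10 genes, 9 had probe sets, 19 in all, among 45101 probe sets and 18194 genes of the array. Crb2 was paired with no probe set in the annotation used here, so no value is given for it. The arrays compare glomeruli of 3 dendrin knockout mice with those of 3 wild type littermates, all 13 months old, with 1 array per mouse. The labels give their strain as 129S6SvEv/C57BL6, which in the methods is the strain of the targeted embryonic stem cells. In the knockout line, the whole coding sequence of dendrin was replaced in the germ line by a cassette with eGFP and a neomycin gene, and the mice were backcrossed to C57BL/6 for several generations. The values are GCRMA values, background-corrected and quantile-normalized signals on the log2 scale, and differences are knockout minus control.

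Cell polarity rests on protein complexes that exclude each other from parts of the membrane. The scaffold PAR3 and the adaptor PAR6 hold aPKC at the apical side and at cell junctions, where Crumbs proteins anchor it, while Scribble, LGL and DLG act at the basolateral side, and aPKC keeps LGL away from the apical side by phosphorylating it. In podocytes, the epithelial cells that cover the glomerular capillaries, PAR3 and aPKC are known to associate with nephrin and Neph proteins of the slit diaphragm, the junction between foot processes at which dendrin also lies, and loss of aPKC iota from podocytes causes proteinuria in mice.

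The labels were checked on dendrin itself. The only probe set of Ddn, its gene, was at 3.80, 3.81 and 3.80 in the knockout mice and at 12.22, 12.81 and 12.31 in the control mice. The groups lie far apart, and the knockout values lie under log2 4, though above the lowest value of the table, 2.20. Markers of podocytes were strong on all arrays, as all 10 that were measured lay above log2 4, the level under which a mean over the 6 arrays is called dim here. Among the control mice, control 2 stood apart, with markers of the loop and the segments after it (distal tubule, collecting duct) at a median of 2.32 above the mean of the other arrays (6 genes that are not dim), proximal tubule markers at 1.29 above (11 genes) and leukocyte markers at -2.00 relative to it (14 genes). For the genes described below, the value without this mouse is given wherever it has the other sign, differs by over 1.5 times or lies on the other side of an unadjusted p of 0.05. The arrays hold RNA of whole glomeruli, so that fewer cells of a type and less RNA per cell cannot be told apart.

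The polarity genes differed little between knockout and control glomeruli. No member probe set passed the criterion of the study, a fold over 1.5 in either direction with an unadjusted p under 0.05, which 0.18% of all probe sets passed with limma. None passed an adjusted p of 0.05 either, with 0.00222% of all probe sets doing so, and the lowest adjusted p among them was 1 (limma, with Benjamini-Hochberg adjustment over the whole array). With each gene represented by its probe set of highest mean, 5 of the 9 genes were higher and 4 lower in knockout glomeruli (55.1% of all probe sets that are not dim were higher), and the largest difference was 1.15-fold, that of Prkcz. The count depends on control 2, without which Pard6a and Prkcz changed from lower to higher, at 0.12 and 0.03. Without regard to sign, the median difference was 0.095 (log2), beside 0.090 over all 19619 probe sets that are not dim. The median SD between mice of a group was 0.13 for the members and 0.12 for all probe sets that are not dim. At an unadjusted p under 0.05, limma counted 2 member probe sets, both higher in knockout (11.8% of the 17 that are not dim, where 8.12% of all such probe sets were counted in either direction and 4.91% higher in knockout). The groups did not overlap for 3 member probe sets (17.6% of the 17), beside 13.7% of all probe sets that are not dim, and all 3 were higher in knockout, beside 8.03%.

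**Figure D1:**
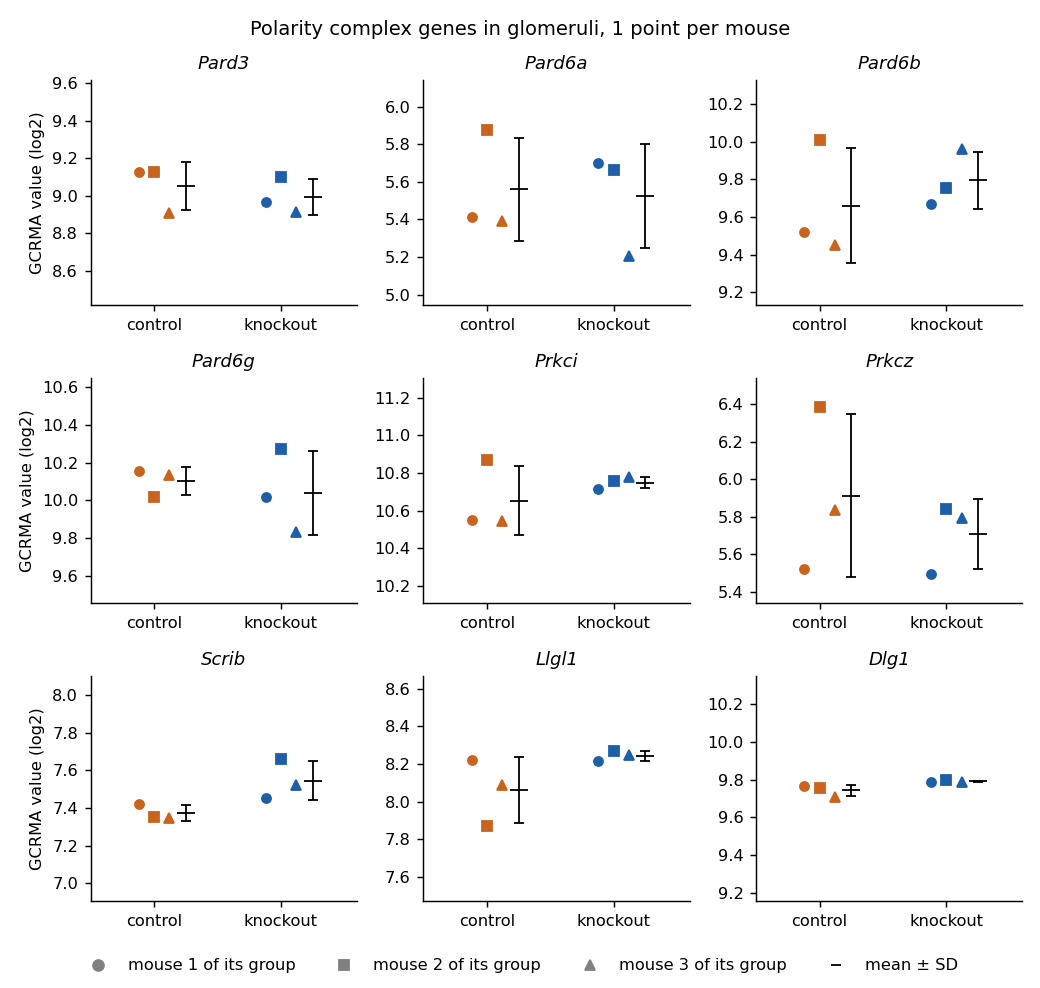
GCRMA values (log2) of the 9 measured polarity genes, 1 point per mouse with the mean ± SD beside it (n = 3 mice per group). All panels span the same range of log2 values, and the groups are separate only for Scrib and Dlg1, whose differences are 0.17 and 0.05.

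Pard3 encodes PAR3, the scaffold that recruits PAR6 and aPKC to cell junctions. Its brightest probe set was at 8.97, 9.10 and 8.91 in the knockout mice and at 9.12, 9.13 and 8.91 in the control mice. The groups overlapped, and the difference was -0.06 (standard error 0.089, two-sided exact permutation test, p = 0.6), or -0.02 without control 2. Pard3 is covered by 3 further probe sets, of which 1 gave 7.34, 7.62 and 7.42 in knockout and 7.32, 7.25 and 7.18 in control. There all knockout mice lay above all control mice, although the lowest knockout and the highest control value differed by little. The difference was 0.21 (standard error 0.090, exact permutation test, p = 0.1, below which 3 mice against 3 cannot go). The remaining pair were at -0.04 and 0.11 (0.05 and 0.06 without control 2), so that the 4 probe sets of this gene did not share a direction.

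The PAR6 adaptors, which bind aPKC and the small GTPases Cdc42 and Rac1, are encoded by a gene family of which all members were measured. Pard6b had values of 9.67, 9.75 and 9.96 in knockout and 9.52, 10.01 and 9.45 in control. Control 2 was the highest of all mice, and the other controls were the lowest. The difference was 0.13 (standard error 0.19, exact permutation test, p = 0.6) and 0.31 without control 2, and the further probe set of this gene was at 0.08 and 0.24. Pard6g was at 10.02, 10.27 and 9.83 in knockout and at 10.15, 10.02 and 10.14 in control, with more scatter in the knockout than in the control group, and differed by -0.06 (standard error 0.13), or -0.10 without control 2. A further Pard6g probe set was at -0.01. Pard6a, of which a single probe set is present, was at 5.70, 5.66 and 5.21 in knockout and at 5.41, 5.88 and 5.39 in control. Its highest value was again that of control 2, and its difference of -0.04 (standard error 0.22) had the opposite sign, 0.12, without this mouse.

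Neither aPKC isoform had groups that were separate. Prkci encodes aPKC iota, the isoform whose loss from podocytes is known to cause proteinuria. Its brightest probe set gave 10.72, 10.76 and 10.78 in knockout and 10.55, 10.87 and 10.55 in control. The knockout mice lay close together, above control 1 and control 3 and below control 2. The difference was 0.10 (standard error 0.10, exact permutation test, p = 0.4). Without control 2 it was 0.20, with all knockout mice above both remaining controls, an unadjusted p of 0.00189 and an adjusted p of 0.497 (limma). Of the 17 member probe sets that are not dim, this was then the only one at an unadjusted p under 0.05. Without control 2, 12.4% of all probe sets that are not dim had such a p. A dimmer Prkci probe set went the other way, at -0.23 with a standard error of 0.28, and at -0.02 without control 2. Prkcz, which encodes aPKC zeta, was at 5.50, 5.84 and 5.79 in knockout and at 5.52, 6.38 and 5.83 in control. Apart from control 2 the values of both groups covered the same range. The difference was -0.20 (standard error 0.26, exact permutation test, p = 0.5) and 0.03 without control 2. A further Prkcz probe set was at -0.12 (0.02 without control 2), and the last one had the same value, 2.20, on all arrays, the lowest of the table.

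Because both isoforms bind the same PAR6 adaptors, their balance within each mouse was also compared, a comparison chosen after the values had been seen. The log2 ratio of the Prkci to the Prkcz signal was 5.22, 4.92 and 4.98 in knockout and 5.03, 4.49 and 4.71 in control. The signals of different probe sets have no common scale, so only the change of the ratio between mice can be read. It was higher by 0.30 in knockout, with overlapping groups (exact permutation test, p = 0.3), and by 0.17 without control 2. This ratio rests on the brightest probe set of each gene, and the dimmer Prkci probe set went the other way, at -0.23 (-0.02 without control 2). The log2 ratio of Pard6b to Pard6g differed by 0.19 (0.41 without control 2), likewise with overlapping groups (exact permutation test, p = 0.5).

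The brightest probe sets of the Scribble complex genes had small positive differences, from 0.05 to 0.18, none of which passed the criterion or an adjusted p of 0.05. Scrib, the gene of the scaffold Scribble, was at 7.45, 7.66 and 7.52 in knockout and at 7.42, 7.35 and 7.35 in control. All knockout mice lay above all control mice, knockout 1 only just. The mean of the 3 knockout mice was 7.55 with an SD of 0.10, that of the 3 control mice was 7.37 with an SD of 0.042, and the difference of 0.17 (standard error 0.063) corresponds to 1.13-fold. Its limma p was 0.0480 unadjusted and 1 after adjustment, and that of the exact permutation test was 0.1. Without control 2 the difference was 0.16, with an unadjusted p of 0.127 and an adjusted p of 0.998 (limma). Scrib lies on chromosome 15 as Ddn, the gene of dendrin, does, with 344 protein-coding genes between them in the GRCm38.p6 annotation, and whether the difference goes with the lack of dendrin or with sequence of the targeted chromosome cannot be told apart here. The other measured members lie elsewhere, Pard3 and Pard6a on chromosome 8, Pard6b on 2, Pard6g on 18, Prkci on 3, Prkcz on 4, Llgl1 on 11 and Dlg1 on 16.

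Llgl1, which encodes the aPKC substrate LGL1, was at 8.22, 8.27 and 8.25 in knockout and at 8.22, 7.87 and 8.09 in control. Control 2 was the lowest, control 1 reached the knockout values, and the groups overlapped. The difference was 0.18 (standard error 0.099, exact permutation test, p = 0.2) and 0.09 without control 2. Dlg1 encodes the basolateral scaffold DLG1, also called SAP97. Its brightest probe set was at 9.79, 9.80 and 9.79 in knockout and at 9.76, 9.75 and 9.71 in control. The groups did not overlap, since the knockout mice lay within an SD of 0.0052, but the difference was only 0.05 (standard error 0.016), or 1.03-fold. Its limma p was 0.0396 unadjusted and 1 after adjustment, and that of the exact permutation test was 0.1. Without control 2 the difference was 0.05, with an unadjusted p of 0.0670 and an adjusted p of 0.937 (limma). In fits with probe sets of a mean of at least log2 4 alone, where the variance is drawn towards that of all such probe sets, the p of Dlg1 was 0.336 and that of Scrib 0.0509. A further Dlg1 probe set was at -0.03 with overlapping groups (0.03 without control 2), and the last one was at 2.20 on all arrays.

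**Figure D2:**
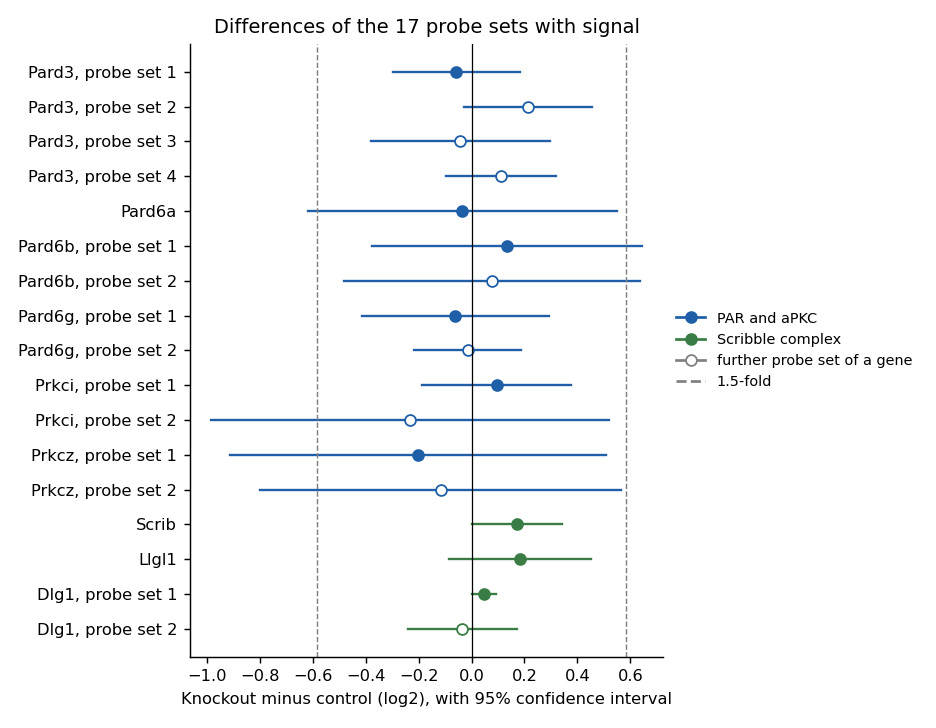
Difference between knockout and control (log2) with its 95% confidence interval from limma for the 17 member probe sets that are not dim, grouped by complex, with the brightest probe set of a gene filled. The intervals of Scrib and of 1 Dlg1 probe set lie just above 0, and 11 intervals lie within the dashed lines at 1.5-fold.

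The confidence intervals give the range of differences that these arrays do not exclude. Of the 17 member probe sets that are not dim, 11 had a 95% interval within 1.5-fold in either direction, including all those of Pard3, Pard6g, Scrib, Llgl1 and Dlg1 and the brighter one of Prkci. For Scrib the upper end of the interval was 1.27-fold, and for the brightest probe sets of Pard3 and Pard6g from 0.813-fold to 1.13-fold and from 0.751-fold to 1.22-fold. The other 6 intervals reached past 1.5-fold, and they belong to Pard6a, Pard6b, Prkcz and the dimmer probe set of Prkci. The widest of the brightest probe sets was that of Prkcz, from 0.531-fold to 1.42-fold, which takes in a fall past 1.5-fold.

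Markers of the cell types in the samples are given beside these values because several lists varied between the mice or between the groups. On control 2 the member genes were at a median of 0.12 above the mean of the other arrays, with Prkcz at 0.68, Pard6a at 0.40 and Pard6b at 0.34 above it and Llgl1 at -0.34 relative to it. The summed unlogged signal of the 16 markers of the loop and the later segments, of which 10 are dim, was 13898 on control 2, between 3008 and 3121 on the other controls and between 3013 and 4115 in knockout. That of the 15 measured proximal tubule markers of 16 listed was 6550 on control 2, between 1427 and 2916 on the other controls and between 2561 and 4014 in knockout. That of the 16 leukocyte markers was 11841 on control 2, and between 42199 and 55474 on the other controls. It was between 33194 and 54861 in knockout, and Cd3e, the marker of T cells, was at the lowest value of the table on all arrays. All 10 podocyte markers were higher in knockout, as 55.1% of all probe sets that are not dim were. Their median difference was 0.13 (0.22 without control 2), and none was at an unadjusted p under 0.05 by limma. Without control 2, 6 of them were, beside 12.4% of all probe sets that are not dim. The summed signal of the podocyte markers was between 114522 and 120180 in knockout, 122523 on control 2 and between 104156 and 104551 on the other controls. On the brightest probe sets of Pard6b and Prkci, control 1 and control 3 were the lowest mice, an order looked for after the values were seen. Control 2, which was high for tubule markers, was the highest on both. On the dimmer Prkci probe set knockout 2 was the lowest, at 5.09. For no other measured member gene were control 1 and control 3 both the lowest mice on the brightest probe set. The share of all probe sets with this order was not counted. Of the 10 markers of glomerular endothelium, 9 were lower in knockout, with a median difference of -0.17 (-0.16 without control 2). Their summed signal was between 63620 and 68063 in knockout and between 69066 and 71321 in control, so that the groups did not overlap. Kdr, Flt1, Tek and Emcn were each at an unadjusted p under 0.05 by limma with groups that did not overlap, at -0.22, -0.18, -0.18 and -0.08, and each had an adjusted p of 1. These were 4 of the 10 markers. Of all probe sets that are not dim, 8.12% had such a p and 13.7% had groups that did not overlap. Without control 2, 3 of the markers remained at an unadjusted p under 0.05, and Kdr did not, beside 12.4% of all such probe sets. Of the 6 markers of mesangium and smooth muscle that are not dim, 4 were higher in knockout and 2 lower, with a median difference of 0.21 (0.29 without control 2). Tagln, a smooth muscle marker, passed the fold and p criterion at 0.68 (adjusted p of 1, limma), as 0.382% of all probe sets that are not dim did. It was at 0.89 without control 2. Of the 2 markers of parietal epithelium that are not dim, 1 was higher and 1 lower in knockout. Cldn1 was at 0.74 with groups that did not overlap and an exact permutation p of 0.1 (0.58 without control 2). Cd24a was at -0.12 with overlapping groups (-0.08 without control 2). The part of any of these cell types in the differences of the polarity genes was not tested.

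**Figure D3:**
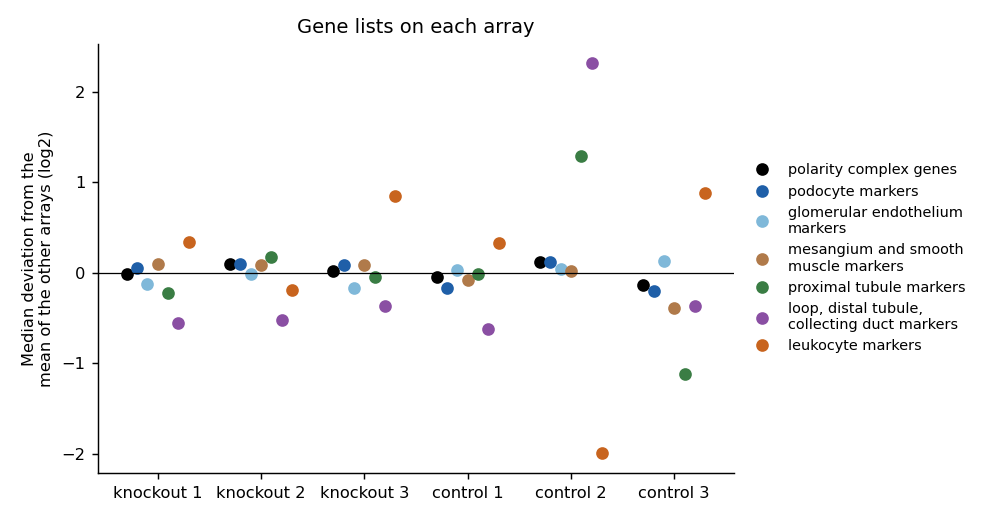
Median deviation of each array from the mean of the other arrays (log2), for the 9 polarity genes and for marker genes that are not dim (10 podocyte, 10 endothelial, 6 mesangial and smooth muscle, 11 proximal tubule, 14 leukocyte genes and 6 genes of the loop and later segments). Control 2 is far above the others for tubule markers and far below for leukocyte markers, endothelial markers are below 0 on the knockout and above 0 on the control arrays, and the polarity genes stay between -0.13 and 0.12 on every array.

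Partners of the complexes were taken from 5 lists, of Crumbs partners, PAR partners, PAR1 and PAR4 kinases with the 14-3-3 proteins, Scribble partners and paralogs, and junction proteins. Of 62 genes listed, 59 had a probe set and 47 were not dim. Among these 47, 29 were higher and 18 lower in knockout, with a median difference of 0.02, and the median over all probe sets that are not dim was 0.02 as well. At an unadjusted p under 0.05, 3 were higher and 3 lower (limma), which is 12.8% of the 47 beside 8.12% of all probe sets that are not dim. Groups that did not overlap were found for 6 genes, also 12.8%, beside 13.7%. Without control 2, 5 were higher and 2 lower at an unadjusted p under 0.05 (14.9%, beside 12.4% of all such probe sets). These were Pard3b, Ywhah, Lrrc1, Git2 and Cldn5, and lower Tiam1 and the junction receptor gene F11r (-0.10, and -0.05 on all mice), Git2 and F11r being named after their values were seen. A single gene, Tiam1, passed the fold and p criterion (1.69% of the 59, beside 0.18% of all probe sets and 0.382% of those that are not dim), and no gene passed an adjusted p of 0.05, the lowest being 1.

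Tiam1 encodes an activator of the GTPase Rac1 that binds PAR3 and aPKC at cell junctions. It was at 8.25, 8.37 and 8.48 in knockout and at 9.11, 8.89 and 9.37 in control. All knockout mice lay below all control mice, with a gap between the groups. The mean was 9.12 ± 0.24 in control and 8.37 ± 0.12 in knockout mice (SD, n = 3 each), a difference of -0.76 (standard error 0.15), with a 95% interval from 0.449-fold to 0.781-fold. The unadjusted p was 0.00566 and the adjusted p was 1 (limma). It remained past the criterion with each array left out in turn, with differences from -0.87 to -0.63, and without control 2 it was at -0.87. The gene has 2 further probe sets, both at the lowest value of the table on all arrays, so that the difference rests on a single probe set.

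Of the 9 PAR partners that are not dim, Tiam1 included, 3 were higher and 6 lower. The junction receptor Jam2 was at 8.11, 7.99 and 8.05 in knockout and at 8.15, 8.12 and 8.20 in control, a separation of the groups with a difference of -0.11 (standard error 0.040). Numb, an adaptor that aPKC phosphorylates, was named after its values were seen, as the remaining PAR partner, beside Tiam1 and Jam2, with an unadjusted p under 0.05 by limma (-0.08, standard error 0.028). Without control 2, Jam2 was at -0.13 and Numb at -0.09, and neither had an unadjusted p under 0.05. Pard3b, a paralog of Pard3, was at 0.16 (standard error 0.14) and Sqstm1, which binds aPKC through a shared interaction domain, at 0.12 (standard error 0.071), both with overlapping groups. Without control 2, Pard3b was at 0.29, with an unadjusted p of 0.0353 and an adjusted p of 0.786 (limma).

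Among the Scribble partners and paralogs, 7 of 11 genes that are not dim were higher and 4 lower. Lrrc1, which encodes the Scribble-related protein LANO, was at 8.30, 8.28 and 8.36 in knockout and at 7.74, 8.16 and 7.93 in control. Every knockout mouse was above every control mouse. The difference was 0.37 (standard error 0.12), or 1.29-fold, and 0.48 without control 2, with an adjusted p of 1 from limma and a p of 0.1 from the exact permutation test on all mice. Git2, a signalling adaptor named after its values were seen, was likewise separated, at 0.12 (standard error 0.025), and both had an unadjusted p under 0.05 by limma. Vangl2, a planar polarity protein that binds Scribble, was at -0.29 (standard error 0.19) and the DLG paralog gene Dlg3 at -0.19 (standard error 0.23, or -0.13 without control 2), while the LGL paralog gene Llgl2 was at 0.15 (standard error 0.11). The groups overlapped for each of these last genes.

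Of the Crumbs partners, 5 of 9 genes were not dim, and none had an unadjusted p under 0.05. Mpp5, which encodes the Crumbs-binding scaffold PALS1, was between 12.05 and 12.20 in knockout and between 11.86 and 12.39 in control. The control mice enclosed the knockout mice, and the difference was 0.05 (standard error 0.16), or 0.21 without control 2. Inadl, the gene of the scaffold PATJ, was at -0.23 (standard error 0.37), the FERM domain gene Epb41l5 at 0.18 (standard error 0.17) and the PDZ scaffold gene Mpdz at 0.04 (standard error 0.034). Without control 2, Inadl was at 0.03 and Epb41l5 at 0.33. Crb1 and Crb3, the paralogs of Crb2, were dim.

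The kinases of the PAR1 and PAR4 groups and the 14-3-3 proteins, the PAR5 members of the system, varied least, with all 13 genes that are not dim between -0.02 and 0.07. Ywhaq, a 14-3-3 gene, was the only one with an unadjusted p under 0.05, at 0.05 (standard error 0.016), and without control 2 it no longer had one. The 14-3-3 genes Ywhaz and Ywhah were at 0.07 each, Ywhah at 0.10 without control 2 with an unadjusted p of 0.00996 and an adjusted p of 0.639 (limma), and the PAR1 kinase gene Mark2 at 0.05. Of the 9 junction genes that are not dim, none had an unadjusted p under 0.05. The values of the nectin genes Nectin2 (0.19, standard error 0.11) and Nectin3 (-0.13, standard error 0.13), of the cadherin gene Cdh2 (-0.13, standard error 0.49) and of the claudin gene Cldn5 (0.12, standard error 0.23) came from overlapping groups. Without control 2, Nectin3 was at -0.21, Cdh2 at -0.54 and Cldn5 at 0.34, and Cldn5 then had an unadjusted p of 0.0303 and an adjusted p of 0.760 (limma).

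**Figure D4:**
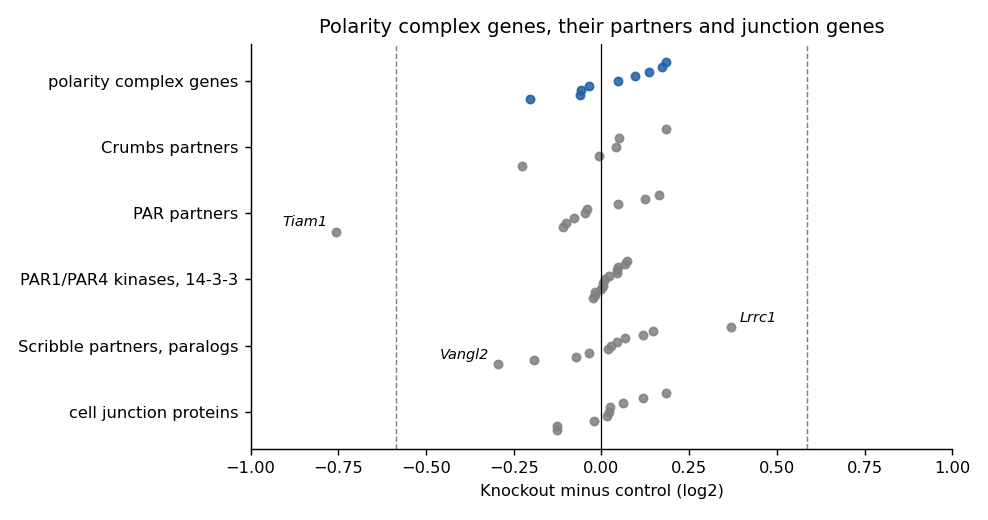
Differences between knockout and control (log2) for the 9 polarity genes and for the 47 partner and junction genes that are not dim, 1 point per gene, with dashed lines at 1.5-fold. Tiam1 at -0.76 is the only point outside the lines, and Lrrc1 at 0.37 and Vangl2 at -0.29 are the next largest.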

How the data were processed

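Total RNA of isolated glomeruli was labelled and hybridized to Affymetrix mouse arrays. The authors made the deposited log2 values from the array intensities with GCRMA (version 2.30.0, from the submitters' processing notes), and raw intensities were not used here. Groups come from the labels. Probe sets were named through the platform's annotation, in which 34958 name 1 gene, 932 several and 9211 none. Chromosomes are those of GRCm38.p6.

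Knockout and control were compared with limma (version 3.58.1, R 4.3.3, functions lmFit and eBayes, two-sided test). All 45101 probe sets entered the fit without filter or covariate, with 4 residual and 0.312 prior degrees of freedom, and Benjamini-Hochberg adjustment over all probe sets. The study's own test, SAM, was an alternative. The procedure was tested on simulated data. A probe set is dim if its mean is under log2 4. The brightest probe set stands for a gene. From each partner list, genes past the criterion and up to 4 of largest difference are named. The member genes and all lists were chosen with earlier results of these data known. The number of arrays limits the precision.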

Additional observations from a re-analysis of the deposited data

How the results depend on the processing

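Control 2 and the number of mice limit these results, and limma's prior had few degrees of freedom, 0.312 with all probe sets, 2.35 with those of range over 0.1 and 1.68 with those of mean log2 4 or more. The count of 0 member probe sets past the fold and p criterion and the count of 0 at an adjusted p under 0.05 held under every alternative run, SAM and the omission of each array included. With SAM, however, 0 probe sets of the whole array passed an adjusted p of 0.05, and Ddn itself was at 0.1. By limma, Ddn was at an adjusted p of 0.461 with the replicate block. It was between 0.0771 and 0.192 with any 1 array but control 2 left out. In these runs an adjusted count of 0 cannot show that the members are unchanged. The difference of Ddn ranged from -8.76 to -8.46 with 1 array left out. The median difference over the member genes, 0.05, ranged from 0.03 to 0.09 with 1 array left out, and no other setting moved it by more than 0.079, the SD between arrays. The 2 member probe sets at an unadjusted p under 0.05 became 0 with an intensity trend and robust prior, when only probe sets of mean log2 4 or more, of mean log2 6 or more, or of range over 0.1 were fitted, and with the replicate block, 1 with quantile normalization once more or array weights, and 5 with arrays centred on their medians, which added 0.02 to all differences. With 1 array left out the count ranged from 0 to 2, being 0 without knockout 2 or knockout 3 and 1 without control 2 or control 3. The probe sets counted were not always those of Scrib and Dlg1. Without control 2 it was the brightest one of Prkci, and without control 1 that of Llgl1 was among them (limma, unadjusted p of 0.0385). The 3 member probe sets whose groups do not overlap became 6 with centred arrays, and ranged from 3 to 6 with 1 array left out (5 without control 1, 6 without control 2). Groups of 3 and 2 mice separate more easily than groups of 3, so a higher count there has no meaning by itself. The share of all probe sets without overlap was not counted for these settings, nor that at an unadjusted p under 0.05 with centred arrays. Of the partner genes, 1 passed the criterion with each array left out and 0 at a fold over 2.

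The sign of some small differences changed. With 1 array left out, Pard6a ranged from -0.12 to 0.12, Pard6g from -0.18 to 0.045, Prkcz from -0.40 to 0.032, Cdh2 from -0.54 to 0.22, Cldn5 from -0.010 to 0.34, Dlg3 from -0.34 to 0.025, Inadl from -0.46 to 0.030 and Mpp5 from -0.062 to 0.21, and Pard6a was at 0.045 with array weights. The cause was not tested. The labels tie mice of the same number together by that number alone, and whether they share a litter or a preparation is not stated. Their deviations from the group means correlated at 0.0949, 0.352 and 0.248 across probe sets that are not dim, each mouse best with its own number, and with the replicate block 64 in place of 81 probe sets of the array passed the criterion, Tiam1 among them. The member median was 0.0065 when all probe sets of a gene that are not dim were averaged. The ratios and their alternatives were chosen after seeing the data.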
